A study of Mus musculus with 10 samples.

Results

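Kidneys of mice whose genotype label was G1-APOL1 were compared with all reference kidneys of the same series, that is 8 of its 10 libraries: 2 labelled G1 and 6 references, of which 3 were labelled wild type (single mutant) and 3 Control. Members were chosen by the genotype label alone, and 2 libraries with another allele were left out. The series is described as expression of APOL1 variants in mouse podocytes, the epithelial cells that wrap the glomerular capillaries. The labels give the tissue as kidney. They name no promoter, line, age, sex or treatment. The term single mutant is not explained in them, and they leave unstated whether the libraries of a group are different mice. The p-values below therefore measure the spread between these libraries, which may in part be technical. Human APOL1 reads were not analysed here, and transgene expression is therefore no check of the labels. Levels are in CPM, counts scaled by library total and by TMM factors, which were 1.13 and 1.17 in G1 and 0.90 to 0.99 in the references, so that G1 levels are lower against the references than by totals alone, and a difference is a log2 fold change of G1 against the 6 references.

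APOL1 is a human apolipoprotein that circulates with high-density lipoprotein and lyses trypanosomes, and its G1 variant is known as a risk allele for kidney disease. Mice lack a direct ortholog of APOL1, so the variant is studied as a transgene. Podocytes are a small share of the cells of a whole kidney, whose RNA comes mostly from tubules: the proximal tubule reabsorbs filtered phosphate, glucose, amino acids and protein and burns fatty acids to do so. Injured tubule cells are known to lose these transport genes, to switch on injury proteins such as KIM-1 and NGAL, to divide, and to release chemokines that draw leukocytes.

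The G1 libraries held 34220378 and 33940509 counts, and the references 27596391 to 31349832. Mitochondrial genes took 5.60% and 4.88% of the G1 counts and 6.32% to 8.92% of the reference counts, and the 10 most abundant genes took 10.8% and 10.6% against 12.7% to 14.6%. For each of these quantities the groups did not overlap, and an exact two-sided permutation test over the 28 ways to choose 2 of the 8 libraries gave p = 0.0714, the smallest p this design allows. Along principal component 1 of the log CPM values, with 60.8% of the variance, the G1 libraries scored 107 and 117 and the references -49.2 to -26.7. Component 2, with 15.4%, separated the 3 references whose titles begin with NA_ (-53.2 to -14.7) from the other 3 (27.7 to 39.1), across both labels. Tubule markers were present in all 8 libraries: the phosphate transporter gene Slc34a1 ranged from 1246 to 8002 CPM, and the gene of uromodulin, Umod, from 2238 to 3901.

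The 2 G1 libraries differed from each other in transcripts of the sex chromosomes. Xist, the RNA that coats the inactive X chromosome in female cells, was at 1.11 CPM in G1 replicate 1, 359 in replicate 2 and 0.28 to 0.426 (median 0.335) in the references. The Y-linked helicase gene Ddx3y was at 40.7 CPM in replicate 1, 0.201 in replicate 2 and 45.3 to 50.6 (median 48.2) in the references, and in Uty, Kdm5d and Eif2s3y too replicate 2 was near 0 while replicate 1 was near the reference range. G1 replicate 2 thus had the transcripts of a female kidney, and the other 7 libraries those of male kidneys. Xist is the 1 gene of 5 on the sex chromosome list that rose, and 0 fell. Counts of list members are given below with both G1 libraries and, for most lists, without replicate 2 in parentheses. That fit keeps 1 G1 library, whose spread is taken to be that of the references, and over all genes it called 2777 of the same genes as risen and 1966 as fallen.

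Differences between G1 and the references ran through much of the transcriptome. Of 17471 genes tested, 8091 (46.3%) passed edgeR's quasi-likelihood test at a Benjamini-Hochberg adjusted p under 0.05: 4304 (24.6%) had risen in G1 and 3787 (21.7%) had fallen. These shares are the background for every list below. Among risen genes, 3243 (75.3%) also passed with the same sign against wild type (single mutant) alone and against Control alone, as did 2720 (71.8%) of the fallen, and 0 passed with the opposite sign against either label. In both G1 libraries, 4265 of the risen genes were above all 6 references and 3705 of the fallen below all 6, against 5120 (29.3%) and 4472 (25.6%) of all genes tested. A total of 404 genes had risen, and 231 had fallen, by at least 3 on the log2 scale. Between the reference labels, 0 genes passed between wild type (single mutant) and Control in edgeR (793 at an unadjusted p under 0.05), and 24 passed in DESeq2. With library totals alone in place of TMM scaling, fold changes moved up by 0.27 at the median, and 6645 genes had risen and 2248 had fallen (74.7% risen, against 53.2%). Whole kidney was measured in bulk, so fewer cells of a type and less RNA per cell cannot be told apart.

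Genes of injured and regenerating tubule cells were higher in G1 than in the references. Havcr1 (GRCm38 chromosome 11, 46735080 to 46779578, ENSMUSG00000040405.12), which encodes the tubular injury molecule KIM-1, was at 376 and 267 CPM in the G1 libraries and 2.06 to 5.26 (median 3.08) in the references. Lcn2 (GRCm38 chromosome 2, 32384633 to 32388252, ENSMUSG00000026822.13), which encodes the siderophore-binding protein NGAL, was at 214 and 351 CPM in the G1 libraries and 2.24 to 4.42 (median 2.99) in the references. Spp1 (GRCm38 chromosome 5, 104435118 to 104441050, ENSMUSG00000029304.13), the gene of the secreted phosphoprotein osteopontin, was at 17393 and 25999 CPM in the G1 libraries and 459 to 927 (median 648) in the references. In each case both G1 libraries stood above every reference, and the gaps far exceeded the spread within either group. The log2 fold changes were 6.65 ± 0.28 (SE) for Havcr1, 6.52 ± 0.25 (SE) for Lcn2 and 5.07 ± 0.25 (SE) for Spp1, with Benjamini-Hochberg adjusted p of 2.49e-06, 1.99e-06 and 3.33e-06 in edgeR's quasi-likelihood test. Cd44, the hyaluronan receptor of activated epithelium, was at 151 and 145 CPM in the G1 libraries and 1.97 to 4.63 (median 2.84) in the references. Krt20, a keratin gene of differentiated urothelium and gut, was at 172 and 164 CPM in the G1 libraries and 0.524 to 2.73 (median 0.97) in the references. Krt20 rose by 7.08 and Cd44 by 5.65 on the log2 scale. Other members that rose were the EGF receptor ligand gene Areg (5.57), the adhesion molecule gene Vcam1 (5.52), the protease inhibitor gene Timp1 (5.33), the transcription factor gene Sox9 (4.54) of repairing tubules and the intermediate filament gene Vim (2.96). Of 38 members tested, 32 rose and 0 fell (without G1 replicate 2, 30 and 0), with a median log2 fold change of 2.55. The 6 members that did not pass were Cdkn1a (1.43), Atf3 (2.08), Hbegf (0.72), Itgb6 (0.71), Cryab (-0.14) and Pax2 (-0.32), named here after their values were seen.

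**Figure D1:**
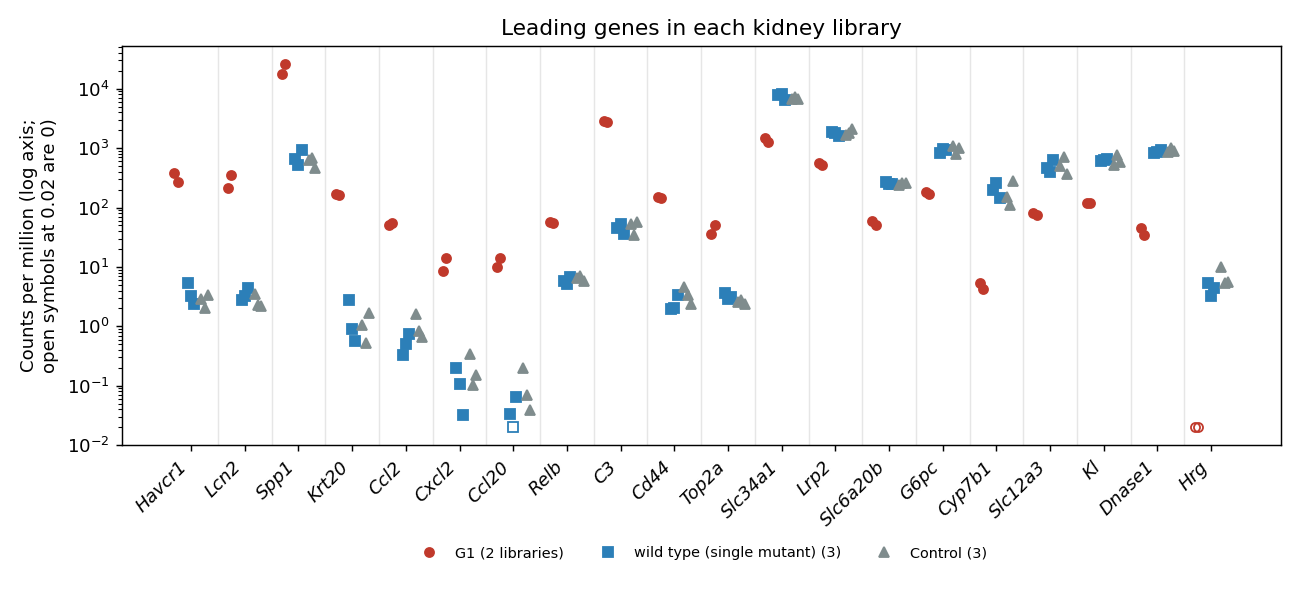
CPM (log axis) of 20 genes in each of the 8 libraries: circles are the 2 G1 libraries, squares the 3 wild type (single mutant) and triangles the 3 Control libraries, and open symbols mark 0. The first 11 genes have both G1 points above all 6 reference points, and the last 9 have both below.

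The genes of the proximal tubule fell. Slc34a1 (GRCm38 chromosome 13, 55398187 to 55415592, ENSMUSG00000021490.10), the gene of the sodium-phosphate cotransporter of its brush border, was at 1489 and 1246 CPM in the G1 libraries and 6577 to 8002 (median 6983) in the references. Lrp2, which encodes the endocytic receptor megalin, was at 558 and 529 CPM in the G1 libraries and 1629 to 2108 (median 1804) in the references, and Slc6a20b, the gene of a proline and imino acid transporter, at 58.7 and 50.5 CPM in the G1 libraries and 244 to 265 (median 252) in the references. The reference values of Slc6a20b lay within a narrow band, and both G1 libraries were far below it. The log2 fold changes were -2.39 ± 0.16 (SE), -1.74 ± 0.13 (SE) and -2.21 ± 0.10 (SE) in that order (edgeR's quasi-likelihood test, Benjamini-Hochberg adjusted p = 2.49e-06 for Slc6a20b). In the first and second segments, of 25 members tested, 1 rose and 21 fell (without G1 replicate 2, 1 and 14), with a median log2 fold change of -1.44. Also among the fallen were the inositol oxygenase gene Miox (-2.57), the organic anion transporter gene Slc22a6 (-2.13), the glucose transporter gene Slc5a2 (-1.74), and Hnf4a (-1.03), which encodes a transcription factor of tubule identity. The sulfate transporter gene Slc13a1 was the 1 member that rose (1.52).

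In the third segment of the proximal tubule, of 16 members tested, 1 rose and 12 fell (without G1 replicate 2, 1 and 8), with a median log2 fold change of -2.22. Slc7a13, the gene of a cystine and aspartate transporter of that segment, was at 21.4 and 6.23 CPM in the G1 libraries and 590 to 891 (median 792) in the references, and Cyp7b1, which encodes an oxysterol hydroxylase, at 5.33 and 4.32 CPM in the G1 libraries and 111 to 285 (median 172) in the references. The water channel gene Aqp1 was at 321 and 400.3 CPM in the G1 libraries and 1173 to 1508 (median 1389.8) in the references. Their log2 fold changes were -5.81 ± 0.52 (SE), -5.31 ± 0.48 (SE) and -1.91 ± 0.15 (SE). Slc7a13 and Cyp7b1 are also male-biased genes of mouse kidney, and Slc7a13 was lower in the G1 library with female transcripts than in the other. The part of sex in these falls was not tested. The glucose transporter gene Slc5a1 was the 1 member that rose (1.37).

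Transport and enzyme genes that work mainly in proximal tubule cells had the same direction. In the list of organic ion and drug transporters, of 31 members tested, 3 rose and 19 fell (without G1 replicate 2, 2 and 12), with a median log2 fold change of -0.97. The largest falls were those of Slc22a7 (-4.63) and Slco1a1 (-4.51), which encode an organic anion transporter and an organic anion-transporting polypeptide, and the risers were Abcc3 (1.83), Slco2a1 (1.58) and Abcc1 (0.48), which encode 2 efflux pumps and a prostaglandin transporter. In the list of xenobiotic and steroid enzymes, of 43 members tested, 6 rose and 25 fell (without G1 replicate 2, 4 and 20), with a median log2 fold change of -1.21. Ces1d, a carboxylesterase gene, was at 103 and 84.6 CPM in the G1 libraries and 458 to 725 (median 534) in the references. Cyp4b1, a fatty acid and xenobiotic monooxygenase gene, was at 606 and 206 CPM in the G1 libraries and 3845 to 5668 (median 4954) in the references. Its log2 fold change was -3.57 with both G1 libraries and -2.99 without replicate 2, the library with female transcripts. Against this direction, Gsta1 (3.74), Cyp4a14 (2.97), Cyp2s1 (1.88) and Mgst1 (1.82) rose, the first being a glutathione transferase gene that shares sequence with its family members. The part of sex in the falls of both lists was not tested.

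Energy metabolism genes fell. Sdha, which encodes the flavoprotein subunit of succinate dehydrogenase, was at 407 and 370.1 CPM in the G1 libraries and 939 to 1025 (median 968) in the references, and Atp5b, the gene of the catalytic subunit of ATP synthase, at 1778 and 1612 CPM in the G1 libraries and 3882 to 4466 (median 4149) in the references. Both G1 libraries were below every reference for each, at -1.32 ± 0.09 (SE) and -1.29 ± 0.11 (SE) on the log2 scale. Among nuclear genes of oxidative phosphorylation, of 39 members tested, 0 rose and 36 fell (without G1 replicate 2, 0 and 30), with a median log2 fold change of -0.70. The 3 that did not pass were Cox5a (-0.36), Cox5b (-0.22) and Cox7b (-0.19), all subunits of cytochrome c oxidase. In the mitochondrial genome, of 8 members tested, 0 rose and 8 fell (without G1 replicate 2, 0 and 5), with a median log2 fold change of -0.88; 13 genes were listed and the other 5 had too few counts to test. Leading values were mt-Nd2 (-0.99), mt-Nd4 (-0.97) and mt-Cytb (-0.87). No count of mt-Nd3 was found in either G1 library, against 137 counts over the 6 references. By counts this is at least 20.75-fold lower (3 counts over G1 as the floor), a bound that covers counting error only. So few counts are unusual in this list, whose summed level was 66723 to 90202 CPM in the references, and 2 listed genes had 0 counts in all 8 libraries. Whether the counts of mt-Nd3 follow its transcript level was not tested.

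Fatty acid oxidation followed the same course: of 37 members tested, 0 rose and 24 fell (without G1 replicate 2, 0 and 16), with a median log2 fold change of -0.74. Acadvl, which encodes very-long-chain acyl-CoA dehydrogenase, was at 117 and 93.9 CPM in the G1 libraries and 224 to 249 (median 232) in the references, and Hadh, the gene of a short-chain hydroxyacyl-CoA dehydrogenase, at 345 and 273 CPM in the G1 libraries and 722 to 933 (median 805) in the references. Their regulators Ppara (-1.19), Ppargc1a (-1.02) and Ppargc1b (-1.08) fell too. In amino acid catabolism and creatine or carnitine synthesis, of 41 members tested, 2 rose and 32 fell (without G1 replicate 2, 1 and 29), with a median log2 fold change of -1.40. Cbs, which encodes the cystathionine-forming enzyme of the transsulfuration pathway, was at 35 and 33.5 CPM in the G1 libraries and 199 to 300.2 (median 238) in the references, and the tyrosine-degrading enzyme gene Hpd fell by 3.43. Arg2, the gene of mitochondrial arginase, went the other way, at 60.2 and 63.5 CPM in the G1 libraries and 4.58 to 6.78 (median 5.66) in the references. It rose by 3.44 ± 0.13 (SE) (edgeR's quasi-likelihood test, Benjamini-Hochberg adjusted p = 1.99e-06), and Bbox1, of carnitine synthesis, rose by 0.73.

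In gluconeogenesis and ammonia production from glutamine, of 18 members tested, 2 rose and 11 fell (without G1 replicate 2, 2 and 9), with a median log2 fold change of -0.81. G6pc, the gene of the glucose-6-phosphatase that ends gluconeogenesis, was at 186 and 167 CPM in the G1 libraries and 785 to 1096 (median 957) in the references, and Fbp1, of fructose bisphosphatase, at 460.4 and 370.1 CPM in the G1 libraries and 1219 to 1562 (median 1324) in the references. Both risers, Fbp2 (1.64) and Pck2 (1.20), are paralogs of fallen genes (Fbp1 (-1.71) and Pck1 (-0.72)). In glycolysis, of 23 members tested, 5 rose and 7 fell (without G1 replicate 2, 1 and 6), with a median log2 fold change of -0.11 that was 0.16 with library totals alone. Pfkm, the muscle isoform of phosphofructokinase, was at 28.2 and 30.5 CPM in the G1 libraries and 60.9 to 70.2 (median 67.7) in the references, whereas Pfkp, the platelet isoform, was at 118 and 105 CPM in the G1 libraries and 41.9 to 68.5 (median 53.3) in the references. In cholesterol synthesis and uptake, of 24 members tested, 2 rose and 12 fell (without G1 replicate 2, 1 and 6), with a median log2 fold change of -0.52; with library totals alone, 6 fell. Abca1, the cholesterol efflux pump gene, was at 177 and 128 CPM in the G1 libraries and 25.1 to 33.8 (median 28.3) in the references and rose by 2.41 ± 0.14 (SE), while the synthesis genes Idi1 (-2.72) and Cyp51 (-2.23) fell.

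Downstream of the proximal tubule the falls were smaller at the median. In the thick ascending limb, of 16 members tested, 2 rose and 10 fell (without G1 replicate 2, 1 and 9), with a median log2 fold change of -0.98. Egf, the growth factor precursor gene of the distal nephron, was at 298 and 399.9 CPM in the G1 libraries and 783 to 1262 (median 1108) in the references, and the chloride transporter gene Slc12a1 at 423 and 540.3 CPM in the G1 libraries and 608 to 1304 (median 877) in the references. Umod, the gene of the most abundant urinary protein, did not pass, at 2238 and 3506 CPM in the G1 libraries and 2605 to 3901 (median 3524) in the references, so that G1 replicate 1 lay below the references and replicate 2 among them. Cldn16, a tight junction gene needed for magnesium uptake, rose, at 27 and 31.5 CPM in the G1 libraries and 6.26 to 9.49 (median 6.8) in the references. Cldn19, its partner, was the other riser (0.63). In the distal convoluted and connecting tubule, of 19 members tested, 1 rose and 12 fell (without G1 replicate 2, 1 and 11), with a median log2 fold change of -0.89. The thiazide-sensitive cotransporter gene Slc12a3 was at 82.1 and 74 CPM in the G1 libraries and 373 to 719 (median 476) in the references, and the calcium-binding protein gene Pvalb at 4.37 and 3.89 CPM in the G1 libraries and 48.6 to 138 (median 84.2) in the references. The 2 differed by -2.72 ± 0.29 (SE) and -4.38 ± 0.54 (SE) on the log2 scale. Atp2b1, a calcium pump gene, was the 1 riser (0.51).

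Principal cells of the collecting duct had the smallest share of called genes among the tubule lists. For them, of 14 members tested, 0 rose and 5 fell (without G1 replicate 2, 0 and 5), with a median log2 fold change of -0.51, and the fallen were Aqp4 (-2.98), Aqp3 (-1.51), Nr3c2 (-0.91), Scnn1a (-0.79) and Hsd11b2 (-0.74). Aqp2, the vasopressin-regulated water channel gene, did not pass, at 125 and 379 CPM in the G1 libraries and 241 to 623 (median 375) in the references, with G1 replicate 1 below the references and replicate 2 among them. For intercalated cells, of 18 members tested, 0 rose and 10 fell (without G1 replicate 2, 0 and 7), with a median log2 fold change of -0.87. Slc4a1, the gene of the chloride-bicarbonate exchanger that these cells share with red cells, was at 6.94 and 7.51 CPM in the G1 libraries and 42.4 to 62.6 (median 46.4) in the references, and Atp6v0a4, a proton pump subunit gene, at 184 and 181 CPM in the G1 libraries and 309 to 341 (median 327) in the references. The transcription factor gene Foxi1, which defines intercalated cells, did not pass (0.07).

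Some chemokine genes were among the largest rises. The summed level of the list lay within the reference range, at 679 and 765 CPM in the G1 libraries against 382 to 818 (median 649). Ccl2 (GRCm38 chromosome 11, 82035571 to 82037453, ENSMUSG00000035385.5), the monocyte attractant, was at 50.6 and 55.2 CPM in the G1 libraries and 0.333 to 1.62 (median 0.704) in the references. Cxcl2, a neutrophil attractant, was at 8.49 and 14 CPM in the G1 libraries and 0.0328 to 0.338 (median 0.131) in the references, and Ccl20, a ligand of CCR6 on lymphocytes, at 10.1 and 14.1 CPM in the G1 libraries and 0 to 0.203 (median 0.052) in the references. Reference levels of Cxcl2 and Ccl20 were close to 0, and both G1 libraries exceeded them by more than an order of magnitude. The log2 fold changes were 6.07 ± 0.37 (SE), 6.14 ± 0.44 (SE) and 7.37 ± 0.49 (SE), with adjusted p of 8.06e-06, 1.61e-05 and 1.13e-05 (edgeR's quasi-likelihood test, Benjamini-Hochberg). Of 29 members tested, 19 rose and 3 fell (without G1 replicate 2, 14 and 1), with a median log2 fold change of 1.86. The fallen were Ccl19 (-4.09), Ccl28 (-3.55) and Cxcl12 (-2.46), which encode chemokines of lymphoid tissue, mucosa and stroma.

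NF-kB is a dimeric transcription factor whose known targets include many chemokine genes and its own subunits and inhibitors. Its activity in these kidneys was not measured. Relb, a subunit gene, was at 56.6 and 55 CPM in the G1 libraries and 5.25 to 7.16 (median 6.16) in the references, Nfkb2, another, at 98.8 and 97.8 CPM in the G1 libraries and 16.6 to 20.9 (median 17.8) in the references, and Icam1, the leukocyte adhesion molecule gene, at 168 and 149 CPM in the G1 libraries and 17.3 to 27.8 (median 20.4) in the references. The libraries of each group lay close together and the groups did not overlap. Of 22 members tested, 19 rose and 0 fell (without G1 replicate 2, 18 and 0), with a median log2 fold change of 2.13. The rises were 3.16 ± 0.11 (SE), 2.42 ± 0.09 (SE) and 2.91 ± 0.14 (SE) for those 3, and the feedback inhibitors Tnfaip3 (2.70), Nfkbia (1.58) and Nfkbiz (2.48) rose as well. The 3 members that did not pass were Nfkbib (-0.02), Tnfaip2 (0.35) and Cyld (-0.19). In RefSeq promoters (GRCm38.p6, 250 bases before to 50 after the start site), which the table held for 12352 of the genes tested, the NF-kB letters (GGG, any 2 bases, then TTTCC, on either strand) stood in 2.06% of tested genes, 3.05% of risen, 1.74% of fallen and 1.69% of uncalled genes. They stood in 6 of 19 promoters of the NF-kB list and 4 of 23 of the chemokine list. The 150 bases before the start of 2 chemokine genes that rose are printed to show these matches in capitals, Cxcl2 at chr5:90903749-90903898, + strand, with matches starting at -97 and -78, and Ccl20 at chr1:83116616-83116765, + strand, with the reverse complement at -80:
Cxcl2: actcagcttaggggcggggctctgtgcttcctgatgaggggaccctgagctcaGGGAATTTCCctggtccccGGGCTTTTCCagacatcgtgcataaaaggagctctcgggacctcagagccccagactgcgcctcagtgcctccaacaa
Ccl20: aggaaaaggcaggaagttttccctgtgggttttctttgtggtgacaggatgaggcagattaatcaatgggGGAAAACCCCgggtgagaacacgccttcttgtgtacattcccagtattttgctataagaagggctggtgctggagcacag
A match of letters is a description of the sequence and was not tested as a binding site.

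Acute phase genes, which the cytokines of the gp130 receptor induce through STAT3, rose. Saa1, a serum amyloid A gene that shares reads with its near-copy Saa2, was at 17.6 and 20.8 CPM in the G1 libraries and 0 to 0.229 (median 0.0936) in the references. Saa2 had 341 counts over the G1 libraries and 3 over the references, a ratio of 250.2 (95% counting interval 84.9 to 1219). Lif, the gene of a gp130 cytokine, was at 7.87 and 10.5 CPM in the G1 libraries and 0.386 to 0.675 (median 0.413) in the references, and Stat3 at 185 and 187 CPM in the G1 libraries and 65 to 80.3 (median 69.2) in the references. The log2 rise of Lif was 4.32 ± 0.23 (SE) and that of Stat3 1.39 ± 0.09 (SE). Of 19 members tested, 14 rose and 1 fell (without G1 replicate 2, 13 and 1), with a median log2 fold change of 2.36, and the fibrinogen chain genes Fgg (4.93), Fgb (4.12) and Fga (3.50) were among the risen. Il11ra1, the gene of the interleukin-11 receptor chain, was the 1 that fell (-0.98).

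Complement genes split. C3 (GRCm38 chromosome 17, 57203970 to 57228136, ENSMUSG00000024164.14), the central component, was at 2868 and 2760.3 CPM in the G1 libraries and 34.6 to 57.6 (median 48.6) in the references, a log2 rise of 5.93 ± 0.19 (SE) (edgeR's quasi-likelihood test, Benjamini-Hochberg adjusted p = 1.78e-06). Cfp, the gene of properdin, which stabilises the C3 convertase, was at 22.7 and 43.4 CPM in the G1 libraries and 3.64 to 6.15 (median 3.77) in the references, and Cfi, whose product cleaves C3b, rose by 3.50. Of 29 members tested, 11 rose and 6 fell (without G1 replicate 2, 11 and 4), with a median log2 fold change of 0.22. The risers included the C1q genes (C1qa (2.05), C1qb (2.24) and C1qc (2.25)) of macrophages and the receptor genes C3ar1 (2.91) and C5ar1 (2.27). Some genes of terminal components were among the fallen. C8a was at 1.92 and 1.13 CPM in the G1 libraries and 19.5 to 37.9 (median 33.2) in the references, and C9 fell by 4.57. The gene of another terminal component, C6, went the other way. It was at 1.48 and 1.23 CPM in the G1 libraries and 0.286 to 0.777 (median 0.439) in the references. Cd55, the gene of a convertase inhibitor, fell by 1.29.

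For the genes of inflammasomes, pyroptosis and necroptosis, of 21 members tested, 16 rose and 1 fell (without G1 replicate 2, 15 and 0), with a median log2 fold change of 1.97. Il1rn, the interleukin-1 receptor antagonist gene, was at 23.3 and 26.7 CPM in the G1 libraries and 0.131 to 0.979 (median 0.223) in the references. Casp4, the caspase gene of the noncanonical inflammasome, was at 17.7 and 15.1 CPM in the G1 libraries and 0.929 to 2.2 (median 1.18) in the references, and Mlkl, which encodes the membrane-lysing executor of necroptosis, at 14.9 and 13.2 CPM in the G1 libraries and 0.848 to 1.64 (median 1.42) in the references. Panx1, a channel gene, was at 11.3 and 12.1 CPM in the G1 libraries and 1.13 to 1.64 (median 1.45) in the references. The rises were 3.59 ± 0.29 (SE) for Casp4, 3.43 ± 0.25 (SE) for Mlkl and 3.02 ± 0.16 (SE) for Panx1. Gasdermin genes Gsdmd (1.97) and Gsdme (0.44) rose, Nlrc4 was the 1 that fell (-1.49), and the cytokine genes Il1b (1.26) and Il18 (0.68) did not pass. Outside the list, Il1f6, the gene of interleukin-36 alpha, was at 15.1 and 14.6 CPM in the G1 libraries and 0 to 0.0771 (median 0.0339) in the references.

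Interferon-induced genes rose together. Irf7, the amplifying transcription factor gene, was at 68 and 68 CPM in the G1 libraries and 8.48 to 15.7 (median 12.2) in the references. Oasl2 was at 39.4 and 46.6 CPM in the G1 libraries and 6.59 to 9.5 (median 8.05) in the references and Oas1a, the gene of an oligoadenylate synthetase, at 12.6 and 15.1 CPM in the G1 libraries and 1.75 to 2.77 (median 2.33) in the references. Of 36 members tested, 31 rose and 1 fell (without G1 replicate 2, 25 and 0), with a median log2 fold change of 1.59, and the summed level of the list was 1133 and 1284 CPM in the G1 libraries against 321 to 898 in the references. The rises of the 3 genes were 2.48 ± 0.18 (SE), 2.42 ± 0.15 (SE) and 2.58 ± 0.20 (SE). Rsad2, the viperin gene, fell (-0.86), and Ifi44 (-0.23), Igtp (-0.15) and Iigp1 (-0.50) were among those that did not pass. In the same promoter windows, the interferon response letters (GAAA, any 2 bases, then GAAA, on either strand) stood in 14 of 27 list members and 3.97% of all genes tested. Isg15, an interferon-induced ubiquitin-like modifier gene, rose by 2.41 and is printed as the example (chr4:156200819-156200968, - strand), with 3 overlapping matches that start at -78, -72 and -66 in capitals:
Isg15: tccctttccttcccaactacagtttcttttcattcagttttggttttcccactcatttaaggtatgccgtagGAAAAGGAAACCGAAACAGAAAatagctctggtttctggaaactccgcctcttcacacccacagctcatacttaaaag

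Genes of macrophages and dendritic cells rose. Itgam, an integrin gene of myeloid cells, was at 20.4 and 22.5 CPM in the G1 libraries and 1.12 to 2.5 (median 1.94) in the references, Mrc1, the mannose receptor gene, at 34.3 and 44.5 CPM in the G1 libraries and 3.44 to 5.94 (median 5.52) in the references, and Lgals3, of the lectin galectin-3, at 371 and 322 CPM in the G1 libraries and 31.2 to 59.1 (median 38.3) in the references. Both G1 libraries were above all references for these 3 genes. Of 25 members tested, 21 rose and 0 fell (without G1 replicate 2, 19 and 0), with a median log2 fold change of 2.91. Summed over the list, the level was 1411 and 1509 CPM in the G1 libraries against 184 to 292 in the references. Csf1r, the receptor gene that defines the lineage, was at 91.1 and 96.2 CPM in the G1 libraries and 54 to 78.9 (median 66.6) in the references, a small rise of 0.49 ± 0.12 (SE) that passed, whereas Cd68, of macrophage lysosomes, rose by 3.09 and Ccr2, the receptor for Ccl2, by 3.79. Csf1, the ligand of Csf1r, was at 75.2 and 103 CPM in the G1 libraries and 8.15 to 11.7 (median 10.2) in the references. The part of these cells in the chemokine, complement and inflammasome values was not tested.

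Other leukocytes left few reads. For neutrophils, of 7 members tested, 5 rose and 0 fell (without G1 replicate 2, 2 and 0), with a median log2 fold change of 1.87, at summed levels of 6.68 and 11 CPM in the G1 libraries against 2.14 to 4.3 in the references. Csf3r, the receptor gene for granulocyte colony-stimulating factor, was at 2.54 and 3.79 CPM in the G1 libraries and 0.643 to 1.22 (median 0.779) in the references. For T and NK cells, of 22 members tested, 8 rose and 0 fell (without G1 replicate 2, 3 and 0), with a median log2 fold change of 1.15; with library totals alone 13 rose. The co-receptor gene Cd4 was at 3.73 and 6.83 CPM in the G1 libraries and 0.786 to 1.68 (median 1.26) in the references and Cd3d at 1.16 and 1.48 CPM in the G1 libraries and 0.231 to 0.594 (median 0.41) in the references. Trac, the T cell receptor constant gene, did not pass (-0.99), at 2.85 and 3.34 CPM in the G1 libraries and 3.21 to 13.6 (median 4.35) in the references. For B and plasma cells, of 16 members tested, 2 rose and 3 fell (without G1 replicate 2, 2 and 0), with a median log2 fold change of -0.90. The risers were Fcer2a (3.56), at 1.5 and 2.03 CPM in the G1 libraries and 0.0666 to 0.28 (median 0.104) in the references, and Sdc1 (1.74), which encodes syndecan-1 and is expressed in epithelium too. The 3 that fell were the immunoglobulin genes Igha (-4.52) and Igkc (-4.38) and the joining chain gene Jchain (-4.29). None of these falls held against every set of references. Against wild type (single mutant) alone 0 members of the list fell, and against Control alone 3. Against the references titled NA_ 5 fell, at a list median of -1.34, and against the other titles 0, at 0.46. Igha ran from 10.3 to 763 CPM within the references, and its fall did not pass against wild type (single mutant) alone (adjusted p = 0.0906 in edgeR's quasi-likelihood test). The call was also lost without G1 replicate 1 (0.206) or 2 (0.162), Control replicate 1 (0.0609) or 3 (0.0644) or wild type (single mutant) replicate 3 (0.0552), and against the references with other titles than NA_ (0.0841).

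Matrix genes rose. Col1a1, of type I collagen, was at 189 and 132 CPM in the G1 libraries and 24.6 to 49.7 (median 33.4) in the references, Mmp14, of a membrane-bound metalloproteinase, at 48.2 and 42.4 CPM in the G1 libraries and 5.54 to 8.79 (median 6.99) in the references, and Adamts1, of a secreted metalloproteinase, at 184 and 209.7 CPM in the G1 libraries and 24.3 to 37.9 (median 35.6) in the references. Of 38 members tested, 26 rose and 1 fell (without G1 replicate 2, 20 and 1), with a median log2 fold change of 1.04. The log2 rises were 2.22 ± 0.25 (SE), 2.69 ± 0.17 (SE) and 2.57 ± 0.15 (SE), and Loxl2, of a collagen-crosslinking oxidase, rose by 2.41 ± 0.19 (SE). Of the fibroblast genes, Pdgfra (-0.87), Dcn (-0.61), Lum (-0.56), Fap (-0.14) and Postn (-0.39) did not pass, nor did the myofibroblast gene Acta2 (0.23). Timp3, a metalloproteinase inhibitor gene, fell by 1.88.

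Among genes of mesangial cells, pericytes and renin cells, of 18 members tested, 5 rose and 5 fell (without G1 replicate 2, 2 and 1), with a median log2 fold change of -0.19 that was 0.08 with library totals alone, where 8 rose and 1 fell. Cspg4, the pericyte proteoglycan gene, was at 61.3 and 55.8 CPM in the G1 libraries and 17.7 to 28.2 (median 21.7) in the references, and Myh11, the smooth muscle myosin gene, at 19.2 and 17.7 CPM in the G1 libraries and 27.1 to 47.3 (median 38.9) in the references. Ren1, the renin gene, rose by 1.25. For endothelium, of 24 members tested, 0 rose and 18 fell (without G1 replicate 2, 0 and 9), with a median log2 fold change of -0.78. With library totals alone, 7 fell. Against wild type (single mutant) alone 11 fell and against Control alone 12, and 9 fell against each label as well as against all 6. Kdr, the main receptor gene for vascular endothelial growth factor, was at 19.4 and 17.3 CPM in the G1 libraries and 31.4 to 75.1 (median 48.3) in the references, Tek, the angiopoietin receptor gene, at 17 and 19.5 CPM in the G1 libraries and 30.1 to 52.7 (median 36.6) in the references, and Prox1, a lymphatic and tubular transcription factor gene, at 2.38 and 2.74 CPM in the G1 libraries and 7.83 to 23.1 (median 12.3) in the references. Falls were -1.49 ± 0.30 (SE), -1.06 ± 0.20 (SE) and -2.36 ± 0.43 (SE) on the log2 scale.

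Cell cycle genes rose. Rrm2, the gene of the ribonucleotide reductase subunit made in S phase, was at 49.7 and 54.6 CPM in the G1 libraries and 5.86 to 7.41 (median 6.72) in the references, Top2a, of the mitotic topoisomerase, at 35.3 and 50 CPM in the G1 libraries and 2.35 to 3.6 (median 2.86) in the references, and Tpx2, of a spindle factor, at 19.1 and 24.6 CPM in the G1 libraries and 1.04 to 1.53 (median 1.32) in the references. For each, the highest reference library was several-fold below the lower G1 library. Of 38 members tested, 36 rose and 1 fell (without G1 replicate 2, 34 and 0), with a median log2 fold change of 2.99. The rises were 2.96 ± 0.10 (SE), 3.88 ± 0.17 (SE) and 4.04 ± 0.16 (SE), with an adjusted p of 1.83e-06 for Rrm2 (edgeR's quasi-likelihood test, Benjamini-Hochberg). Ccnd1, the cyclin D1 gene, fell (-0.90), and Ccnd2 did not pass (0.12), unlike the cyclins of S phase and mitosis (Ccne1 (3.15), Ccna2 (3.62) and Ccnb1 (4.35)). The CCAAT box, a binding sequence of NF-Y common in promoters of mitotic genes, stood in 24 of 29 cell cycle promoters in the table and in 42% of all genes tested. The letters TTTGAA, the core of the cell cycle homology region, stood in 14 of 29 against 14.8%. Promoters of Ccnb1 (chr13:100786487-100786636, - strand) and Cdk1 (chr10:69352913-69353062, - strand), which encode the cyclin and the catalytic subunit of the mitotic kinase and rose by 4.35 and 4.25, are printed with each CCAAT, or its reverse complement, in capitals:
Ccnb1: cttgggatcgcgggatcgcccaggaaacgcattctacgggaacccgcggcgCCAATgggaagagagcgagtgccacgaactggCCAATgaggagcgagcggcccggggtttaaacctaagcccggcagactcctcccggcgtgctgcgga
Cdk1: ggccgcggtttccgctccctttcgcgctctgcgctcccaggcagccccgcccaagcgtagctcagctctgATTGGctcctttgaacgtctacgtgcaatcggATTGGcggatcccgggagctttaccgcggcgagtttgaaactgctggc
Both hold 2 matches in the 150 bases, at -99 and -67 in Ccnb1 and at -80 and -48 in Cdk1.

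In the list of p53 targets and senescence genes, of 27 members tested, 11 rose and 3 fell (without G1 replicate 2, 7 and 1), with a median log2 fold change of 0.71; with library totals alone 18 rose and 1 fell. Trp53 itself was at 72.9 and 74.3 CPM in the G1 libraries and 25.6 to 32.7 (median 28.5) in the references, Pmaip1, a proapoptotic gene, at 58.5 and 68.7 CPM in the G1 libraries and 9.37 to 16.7 (median 11.6) in the references, and Lmnb1, a nuclear lamina gene known to decline in senescence, at 26 and 32 CPM in the G1 libraries and 5.57 to 7.1 (median 6.19) in the references. Cdkn2a (2.99), a cell cycle inhibitor gene, rose. The p53 targets Cdkn1a (1.43), Mdm2 (0.17), Zmat3 (-0.01) and Sesn1 (-0.04) did not pass. Fallen members were Glb1 (-1.16), Sesn2 (-0.58) and Ccng1 (-0.44). Against wild type (single mutant) alone 15 members rose and 2 fell, and against Control alone 8 and 2.

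**Figure D2:**
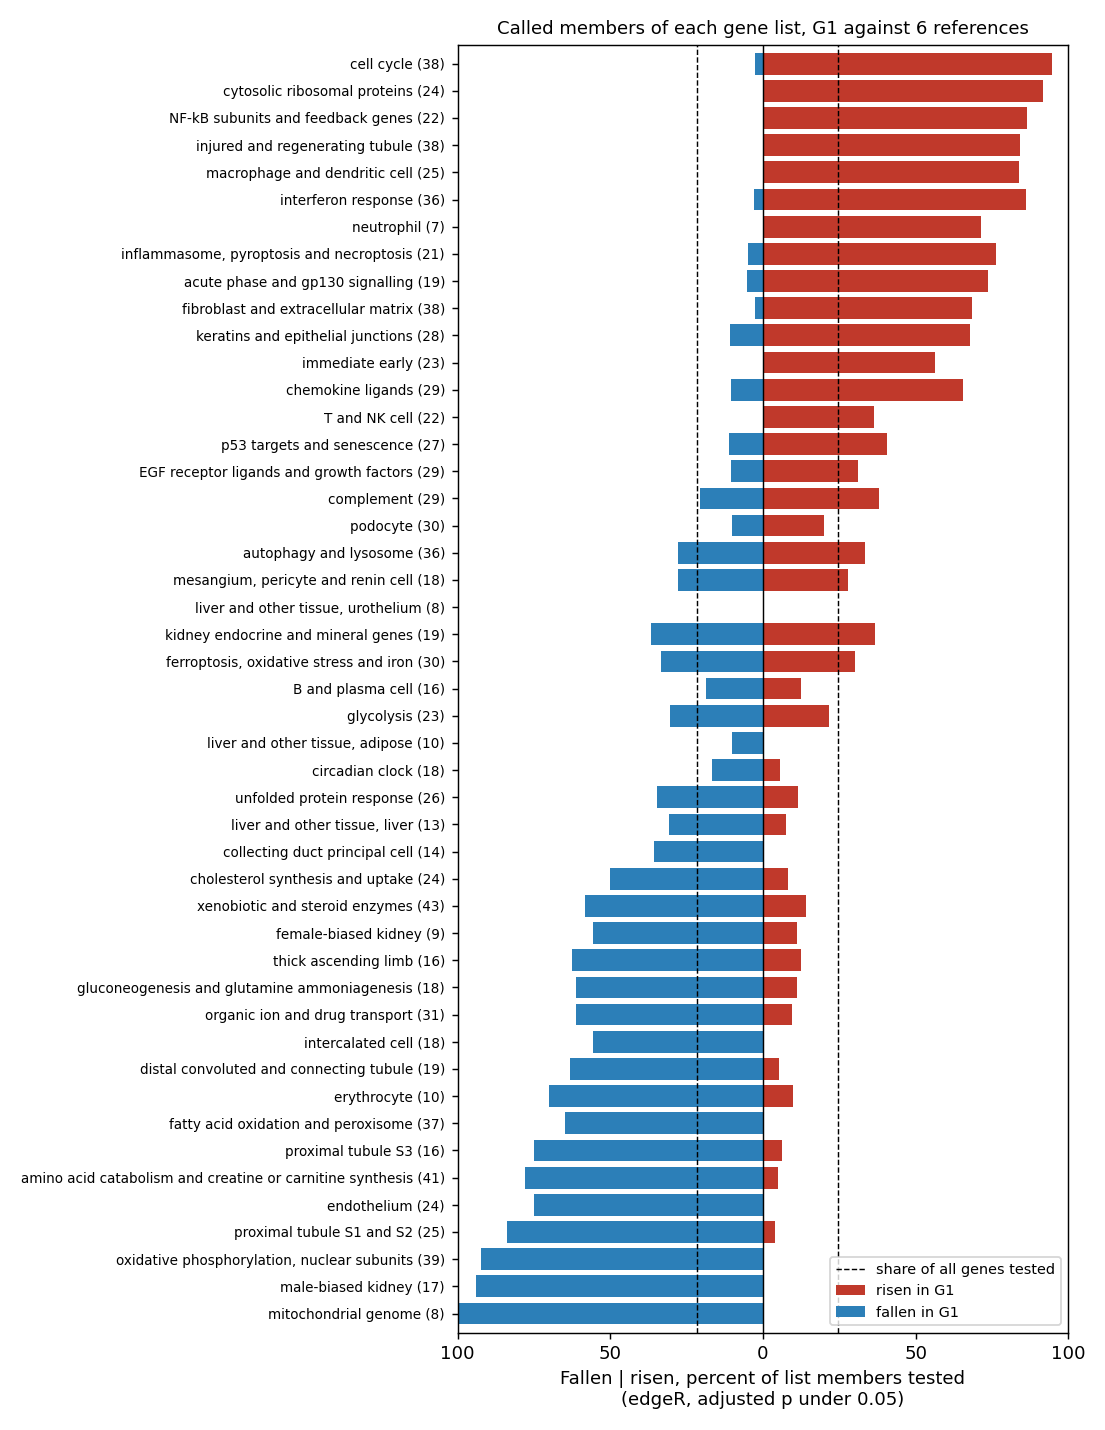
Percent of tested members of each gene list (number tested in parentheses; lists with under 7 are not drawn) that rose in G1 (red, right) or fell (blue, left) against the 6 references by edgeR at an adjusted p under 0.05. Dashed lines are the shares over all genes tested, 24.6% risen and 21.7% fallen: cell cycle, ribosomal, NF-kB and injury lists lie far to the right, and mitochondrial, male-biased and proximal tubule lists far to the left.

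Podocyte genes, the cells the transgene is said to be expressed in, varied several-fold within the references. Nphs1, the nephrin gene of the slit diaphragm, was at 4.4 and 5.7 CPM in the G1 libraries and 5.71 to 31.1 (median 14) in the references, and the difference of -1.66 ± 0.62 (SE) did not pass (edgeR's quasi-likelihood test, Benjamini-Hochberg adjusted p = 0.0553). Podxl, of the surface sialomucin podocalyxin, was at 93.9 and 93.7 CPM in the G1 libraries and 92.1 to 241 (median 134) in the references, Synpo, of the actin organiser synaptopodin, at 37 and 34 CPM in the G1 libraries and 21.9 to 59.6 (median 29.2) in the references, and Wt1, the transcription factor gene, at 7.79 and 8.51 CPM in the G1 libraries and 2.62 to 9.67 (median 3.67) in the references. None of these 3 passed. Their log2 differences were -0.61 ± 0.34 (SE), 0.03 ± 0.36 (SE) and 0.80 ± 0.44 (SE). Of 30 members tested, 6 rose and 3 fell (without G1 replicate 2, 4 and 2), with a median log2 fold change of -0.05 that was 0.22 with library totals alone, shares that are below the background of all genes. The risers were Pdpn (2.60), Nes (2.16), Foxd1 (1.55), Myh9 (1.52), Cd2ap (1.38) and Kirrel (0.97), of which Myh9 and Cd2ap are expressed in many cells. Vegfa, the vascular growth factor gene, and the basement membrane collagen genes Col4a4 and Col4a3 were the fallen (Vegfa (-1.43), Col4a4 (-1.33) and Col4a3 (-1.05)). Of the 12 mouse apolipoprotein L genes, 4 were tested, 0 rose and 0 fell (0 and 0 without G1 replicate 2), at a median of -0.80 and a summed level of 2.59 and 2.74 CPM in the G1 libraries against 2.46 to 7.25 in the references.

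Epithelial keratin and junction genes rose in part: of 28 members tested, 19 rose and 3 fell (without G1 replicate 2, 15 and 2), with a median log2 fold change of 1.39. Sprr2f, a cornified envelope gene whose family shares sequence, had 658 counts over the G1 libraries and 2 over the references, a ratio of 724.1 (95% counting interval 199.7 to 5992). Cdh3, the P-cadherin gene, was at 34.1 and 43 CPM in the G1 libraries and 5.44 to 8.07 (median 6.44) in the references. Cldn1 (3.61) and Cldn3 (2.67), of tight junctions, rose, whereas Cldn2 (-0.51), the claudin of the proximal tubule, Cdh16 (-0.36), the kidney-specific cadherin, and Krt80 (-1.27) fell. Crct1, a cornified envelope gene, had 217 counts in G1 and none in the references, which is at least 159.2-fold higher, and Krt12, a corneal keratin gene, 109 and none, at least 79.97-fold higher, with 3 counts over the references as the floor.

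Growth factors of the EGF family and others were mixed: of 29 members tested, 9 rose and 3 fell (without G1 replicate 2, 8 and 1), with a median log2 fold change of 0.41; with library totals alone 15 rose. Pdgfb, a mitogen gene for pericytes and fibroblasts, was at 88.1 and 109 CPM in the G1 libraries and 22.2 to 27.1 (median 24.6) in the references, and Tgfb2, a profibrotic cytokine gene, at 13.3 and 16.3 CPM in the G1 libraries and 2.57 to 3.76 (median 2.78) in the references. Fallen genes were Egf (-1.59), Bmp7 (-0.66) and Btc (-0.51), and the receptor genes Egfr (0.16), Erbb2 (0.25), Erbb3 (0.15) and Erbb4 (0.02) did not pass. In the list of kidney endocrine and mineral genes, of 19 members tested, 7 rose and 7 fell (without G1 replicate 2, 6 and 5), with a median log2 fold change of -0.16 that was 0.10 with library totals alone. Kl, the gene of the FGF23 co-receptor klotho, was at 121 and 117 CPM in the G1 libraries and 530.3 to 771 (median 617) in the references, and Ace, of the angiotensin-converting enzyme, at 52.9 and 42.9 CPM in the G1 libraries and 180.1 to 409 (median 269.9) in the references. The klotho gene fell, with both G1 libraries below every reference (edgeR's quasi-likelihood test, Benjamini-Hochberg adjusted p = 1.05e-05). Cyp27b1, the gene that makes active vitamin D, rose by 3.01, and Slc34a2, a phosphate transporter gene of other epithelia, by 2.89. Vdr, the vitamin D receptor gene, fell by 0.70.

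Among genes of ferroptosis, oxidative stress and iron, of 30 members tested, 9 rose and 10 fell (without G1 replicate 2, 8 and 6), with a median log2 fold change of -0.17 that was 0.10 with library totals alone. The metallothionein gene Mt2 was at 325 and 358 CPM in the G1 libraries and 16.7 to 39.1 (median 20.4) in the references and Mt1 at 484 and 595 CPM in the G1 libraries and 67.9 to 132 (median 89.2) in the references. Acsl4, whose enzyme builds the lipids oxidised in ferroptosis, was at 111 and 120.3 CPM in the G1 libraries and 37.5 to 49.5 (median 45) in the references and Slc7a11, the cystine importer gene, rose by 2.05. Fallen genes included the antioxidant enzymes Cat (-1.28), Sod1 (-1.04), Sod2 (-1.11) and Gpx4 (-0.52). In autophagy and lysosome genes, of 36 members tested, 12 rose and 10 fell (without G1 replicate 2, 10 and 6), with a median log2 fold change of -0.04 that was 0.23 with library totals alone. The risers were led by the cathepsin genes Ctsl (1.58), Ctsd (1.45) and Ctsb (1.11), and the fallen included Pink1 (-1.23), the mitophagy kinase gene, at 212 and 177 CPM in the G1 libraries and 394 to 501 (median 456) in the references. In the unfolded protein response, of 26 members tested, 3 rose and 9 fell (without G1 replicate 2, 2 and 3), with a median log2 fold change of -0.22 that was 0.05 with library totals alone, where 3 fell. Asns, 2.19, and Trib3, 1.40, of the amino acid response, rose, and the chaperone gene Hspa5 fell by 0.64. Against wild type (single mutant) alone 4 members of this list rose and 5 fell, and against Control alone 2 and 11.

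Genes of cytosolic ribosomal proteins rose by small, even amounts: of 24 members tested, 22 rose and 0 fell (without G1 replicate 2, 17 and 0), with a median log2 fold change of 0.69. Rps9 was at 555 and 622 CPM in the G1 libraries and 292 to 366 (median 307) in the references. Pseudogenes share reads with this family. Immediate early genes, which respond within minutes to growth signals and to handling of tissue, rose in part: of 23 members tested, 13 rose and 0 fell (without G1 replicate 2, 9 and 0), with a median log2 fold change of 1.60. Fosl1, an AP-1 subunit gene, was at 11.2 and 13.2 CPM in the G1 libraries and 0.419 to 0.751 (median 0.513) in the references. Klf6, a zinc finger gene, was at 289 and 281 CPM in the G1 libraries and 30 to 67.3 (median 36.2) in the references. Fos (2.08), Fosb (1.55) and Dusp1 (-0.49) did not pass. Against wild type (single mutant) alone 20 members of this list rose, and against Control alone 12. Of the clock genes, 18 were tested, of which 1 rose and 3 fell (without G1 replicate 2, 0 and 1), with a median log2 fold change of -0.64. Hlf, an output gene of the clock, was at 65.2 and 56.7 CPM in the G1 libraries and 109 to 218 (median 194) in the references, and the core gene Arntl (-2.27) did not pass.

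Transcripts of red cells were far lower in G1. The hemoglobin gene Hba-a1 was at 10.8 and 7.46 CPM in the G1 libraries and 164 to 447 (median 266) in the references, and Alas2, of heme synthesis in erythroid cells, at 0.388 and 0.427 CPM in the G1 libraries and 9.69 to 28.4 (median 16.7) in the references. Of 10 members tested, 1 rose and 7 fell (without G1 replicate 2, 0 and 5), with a median log2 fold change of -3.89. The log2 fold changes were -5.01 ± 0.49 (SE) and -5.49 ± 0.55 (SE); hemoglobin genes are near-identical copies that share reads. Epb42, of the red cell membrane, rose in contrast (2.13). The labels do not say whether kidneys were perfused, and the part of blood content in other results was not tested.

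Male-biased genes of mouse kidney, which androgens induce, fell. Kap, the kidney androgen-regulated protein gene, was at 2878 and 1069 CPM in the G1 libraries and 14948 to 40164 (median 24535) in the references. Cyp4a12a, of an arachidonic acid hydroxylase, was at 14.9 and 8.39 CPM in the G1 libraries and 262 to 569.5 (median 340.2) in the references, and Slc22a30, of an organic anion transporter, at 5.07 and 1.08 CPM in the G1 libraries and 111 to 254 (median 146) in the references. Of 17 members tested, 0 rose and 16 fell (without G1 replicate 2, 0 and 10), with a median log2 fold change of -3.46 that was -2.97 without replicate 2. G1 replicate 1, which has Y-linked transcripts, was below all 6 references for Kap, Cyp4a12a, Slc22a30, Slc7a13 and Cyp7b1, a condition of rules that named these genes. Replicate 2 was lower still for each of them. Without replicate 2 the fold change was -4.73 for Cyp4a12a, -5.17 for Slc7a13 and -3.16 for Kap, and all 3 passed (adjusted p 0.00131, 9.01e-05 and 0.00804 in edgeR's quasi-likelihood test). Genes listed as female-biased fell as well. Of 9 members tested, 1 rose and 5 fell. The median log2 fold change was -1.74 and, without replicate 2, -1.71. Cyp2a4, a steroid hydroxylase gene of that list, was at 143 and 57.4 CPM in the G1 libraries and 448 to 609 (median 542) in the references. It was lower in the G1 library with female transcripts than in the other, which is not the direction of a female-biased gene. The sex bias of the listed genes in kidney was not tested. Abcc3 was the 1 that rose (1.83).

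**Figure D3:**
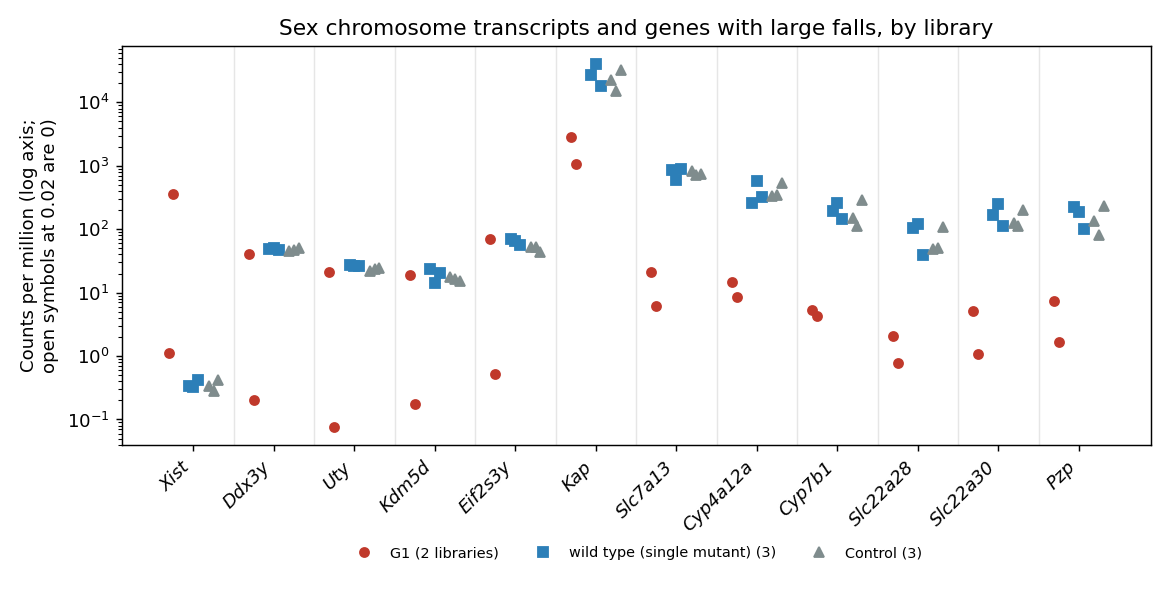
CPM (log axis) of 5 sex chromosome genes and 7 genes with large falls in each library; circles are G1, squares wild type (single mutant) and triangles Control. In the 5 genes at left the 2 G1 libraries lie far apart, with one beside the references. In the 7 at right both lie below all 6 references, a condition of the rules that named them.

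Several genes with large differences stood outside the lists. Aoc1, the diamine oxidase gene, was at 318 and 324 CPM in the G1 libraries and 5.77 to 8.78 (median 7.62) in the references and had the lowest adjusted p of all genes tested (1.17e-06, edgeR's quasi-likelihood test). Orm2, an acute phase glycoprotein gene, was at 19.8 and 6.18 CPM in the G1 libraries and 0.0328 to 0.193 (median 0.0837) in the references, Atp13a4, a cation pump gene, at 7.09 and 9.64 CPM in the G1 libraries and 0 to 0.101 (median 0.0506) in the references, and Meltf, of an iron-binding membrane protein, at 13.3 and 9.64 CPM in the G1 libraries and 0 to 0.295 (median 0.23) in the references. On the falling side, Hrg, of a histidine-rich plasma glycoprotein, had 0 counts in G1 and 3.18 to 9.93 (median 5.37) CPM in the references, at least 148.1-fold lower with 3 counts over G1 as the floor. Dnase1, of the secreted nuclease, was at 44.4 and 34.2 CPM in the G1 libraries and 835 to 1006 (median 889) in the references, a fall of -4.52 ± 0.16 (SE). The anion transporter gene Slc22a28 was at 2.1 and 0.779 CPM in the G1 libraries and 39.1 to 121 (median 77.2) in the references, the alpha-2-macroglobulin relative Pzp at 7.48 and 1.68 CPM in the G1 libraries and 80.8 to 233 (median 159.7) in the references, and the hormone gene Cck at 0.44 and 0.251 CPM in the G1 libraries and 5.5 to 14 (median 10.8) in the references. Nccrp1, an F-box gene, was at 0.336 and 0.402 CPM in the G1 libraries and 0.594 to 68.4 (median 41.5) in the references, its 1 low reference was Control replicate 2. Its fold change was -6.68 with both G1 libraries, -6.57 without replicate 1 and -6.81 without replicate 2, while its call was lost without G1 replicate 1 (adjusted p 0.07) and without replicate 2 (0.0718, edgeR's quasi-likelihood test). Among genes called against each label and free of overlap, the largest rises in CPM beside Spp1 and C3 were those of Clu, the clusterin gene, at 1271 and 2069 CPM in the G1 libraries and 151 to 416 (median 229) in the references, and Apoe, at 1609.5 and 1618 CPM in the G1 libraries and 115 to 517 (median 247) in the references. The next by that rule were Ctsd (1.45), Actb (1.42), Tmem176b (1.09) and H2-K1 (1.97). By the same rule, the largest falls in CPM included those of Kap and mt-Cytb (-0.87), Slc34a1 (-2.39), Cyp4b1 (-3.57), Acsm2 (-2.79), mt-Nd2 (-0.99) and mt-Nd4 (-0.97). Tubb5, a tubulin gene, was at 322 and 352 CPM in the G1 libraries and 62.1 to 76.4 (median 67.1) in the references and was among the 5 lowest p.

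**Figure D4:**
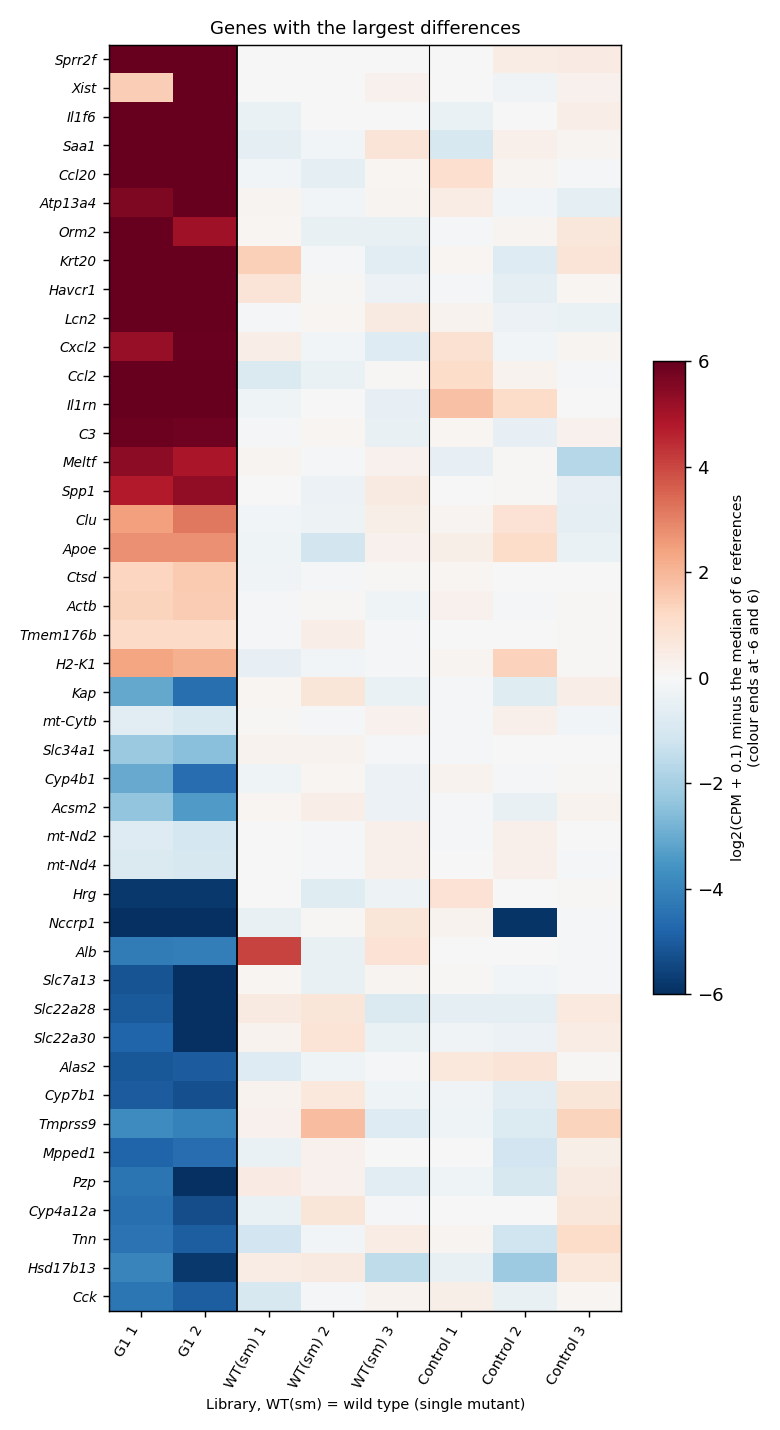
Colour gives log2(CPM + 0.1) minus the median of the 6 references for genes with the largest fold or CPM differences (rows) in each library (columns), red above and blue below, with the scale ending at -6 and 6. Rows were chosen so that both G1 libraries lay above, or both below, all 6 references, which fixes the shared sign of the G1 columns. Xist is pale in G1 replicate 1, and Nccrp1 in Control replicate 2 and Alb in wild type (single mutant) replicate 1 stand out among the references.

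The 2 G1 libraries were alike apart from a small set of genes. Over 11787 genes with a mean of 5 CPM or more, the median absolute log2 ratio between them was 0.13, and 157 differed 2-fold or more, of which 79 were called against the references. Called genes with the largest ratio between the G1 libraries were Xist, Col6a6, Clec3b, Acsm3 and Hsd17b13. Acsm3, an acyl-CoA synthetase gene, was at 54.1 and 6.18 CPM in the G1 libraries and 86.8 to 1523 (median 486) in the references, and Col6a6, a collagen VI chain gene, at 13.2 and 1.31 CPM in the G1 libraries and 4.12 to 81.7 (median 77.4) in the references. In both, G1 replicate 2 was the lower, and both calls were fragile. Without replicate 2 the adjusted p was 0.183 for Acsm3 and 0.224 for Col6a6 (edgeR's quasi-likelihood test). Acsm3 also lost its call without G1 replicate 1 (0.0527), against Control alone (0.0785) and without Control replicate 3 or wild type (single mutant) replicate 1. Col6a6 also lost its call against either label alone (0.0645 and 0.0985), with library totals alone, and without any 1 reference other than Control replicate 2.

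Against each reference label alone the calls were similar in number: 7057 genes (40.4%) against wild type (single mutant), 3786 risen and 3271 fallen, and 6826 (39.1%) against Control, 3675 and 3151. The 2 comparisons share the G1 libraries. Of the genes called against all 6, 390 risen and 425 fallen passed against wild type (single mutant) and not Control, and 332 and 307 the reverse; whether the labels differ for these genes was tested only by the comparison of the labels, in which 0 passed. Ttr, the transthyretin gene, was at 139.5 and 113.6 CPM in G1, 389, 307 and 3.05 in wild type (single mutant) and 2.23, 2.76 and 1.77 in Control, so it differed from Control by 5.80 on the log2 scale and from wild type (single mutant) by -0.88. Kirrel2, of a nephrin-like adhesion protein, was at 2.92 and 3.14 CPM in G1, 0.167, 0.25 and 0.197 in wild type (single mutant), and 5.61, 8.7 and 2.12 in Control. Its fold changes had opposite signs, 3.87 against wild type (single mutant) and -0.85 against Control. Neither gene passed against all 6. Against only the 3 references titled NA_, 3820 genes rose and 3460 fell, and against only the other 3, 4541 and 4020, a split of the references chosen after the data were seen.

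Markers of tissues that a dissection may carry along varied widely among the references. For adipose tissue, of 10 members tested, 0 rose and 1 fell (without G1 replicate 2, 0 and 1), with a median log2 fold change of -2.49; the fallen gene was the lipase gene Lpl (-2.69), and Adipoq was at 6.03 and 0.477 CPM in the G1 libraries and 0.491 to 34.2 (median 11) in the references. For liver, of 13 members tested, 1 rose and 4 fell (without G1 replicate 2, 1 and 0), with a median log2 fold change of -3.98. By reference label, a difference not tested for the list, 1 rose and 8 fell against wild type (single mutant) alone, at a median of -4.78, and 2 rose and 2 fell against Control alone, at a median of -1.94. Its summed level was 153 and 184 CPM in G1, above the 74.3 to 139 of Control and below the 219.9 to 736 of wild type (single mutant). The liver marker Ttr alone was at 139.5 and 113.6 CPM in G1, against 2.23, 2.76 and 1.77 in Control. The markers Alb and Apoa1 were lower in both G1 libraries than in every Control library. Alb, the albumin gene, was at 0.544 and 0.552 CPM in the G1 libraries and 8.54 to 194 (median 11.6) in the references, and Apoa2 and Alb lost their calls when 1 of the G1 libraries was left out, whichever it was, at fold changes of -6.27 and -6.29 for Alb against -6.28 with both, and of -6.40 and -6.35 for Apoa2 against -6.38. For urothelium, of 8 members tested, 0 rose and 0 fell (without G1 replicate 2, 0 and 3), with a median log2 fold change of -0.34. The uroplakin gene Upk1b was at 1.92 and 11.9 CPM in the G1 libraries and 2.52 to 10.9 (median 7.74) in the references. The adrenal list had 3 genes tested, of which 0 rose and 0 fell (0 and 0 without G1 replicate 2), at a median of 0.96. Its defining genes Cyp11b1 and Cyp11b2 were at 0 in all 8 libraries. Muscle and pancreas genes had 2 tested, 0 risen and 0 fallen (0 and 0 without replicate 2), at a median of -2.13, and of -0.47 with the gene at 0 in one group set to its bound. The summed adipose level was 133 and 229.9 CPM in the G1 libraries against 341 to 1713 in the references. The part of these tissues in other results was not tested.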

How the data were processed

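Whole mouse kidney was measured by RNA sequencing, and 8 libraries were used: 2 with the genotype label G1, 3 labelled wild type (single mutant) and 3 labelled Control. The deposited values are raw read counts per gene, made by the authors with HTSeq 0.6.1 and STAR 2.4.1d on build GRCm38, per the submitters' processing notes, which also name Trim Galore, FastQC and CASAVA 1.8.2. The strand setting was not given in the sources used here, nor was the annotation release, and reads of overlapping or antisense genes, and of near-identical family members, may be split or shared. Poly(A) selection and single-end reads are named per the labels' protocols. Those protocols and the design text name different RNA extraction kits. Of 46517 gene identifiers, 46005 matched GENCODE M21.

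Counts were tested as deposited in edgeR 4.0.16 (quasi-likelihood, filterByExpr at min.count 10, TMM scaling) under R 4.3.3, with p-values adjusted by Benjamini-Hochberg over all 17471 genes tested and a threshold of 0.05. The main comparison pooled the 6 references, and a fit with 1 mean for each label gave the comparison with each label alone. The code was tested on simulated data. CPM values, summed levels and count ratios use the library total multiplied by its TMM factor. Standard errors are the fold change divided by the square root of F. Intervals of count ratios are at 95%, and they and the floor of 3 counts cover counting error only. Alternatives were DESeq2 1.42.0, its size factors, library totals alone, no filter, 1 mean for each label, each library left out in turn and, chosen after seeing the data, references split by title.

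The comparison and the 51 gene lists were chosen with earlier results of these data known. Genes were named by these rules: the 15 largest rises and 15 largest falls among genes called against all references and each label, without overlap and at 5 CPM or more in the higher group; the 8 largest differences in CPM each way; the 3 called members of each list with the lowest p; a set of podocyte genes whatever their p; the 5 genes that differed most between the label comparisons; the 5 called genes with the largest ratio between the G1 libraries; the 5 lowest p; and sex chromosome genes and markers of other tissues. Other members of a list were named after their values were seen. Some genes that these rules name are not reported here.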

Additional observations from a re-analysis of the deposited data

Results flagged for a closer look

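Among the 6 reference libraries, 15 of 178 named genes had 1 library whose gap to the nearest other exceeded Dixon's 95% critical value, as a share of the range, and chance flags about 1 in 20 groups. Control replicate 1 was highest for Ccl20 (0.2026 CPM), Hrg (9.927 CPM), Lif (0.6753 CPM), Cfp (6.146 CPM) and Klf6 (67.26 CPM). Wild type (single mutant) replicate 1 was highest for Alb (193.7 CPM), Apoa2 (17.19 CPM), Ahsg (22.32 CPM) and Gm28438 (7.862 CPM). Wild type (single mutant) replicate 2 was highest for Tmem176b (1214 CPM, against 847 to 976.6 in the other 5), and replicate 3 for Tek (52.69 CPM, against 30.13 to 37.85). Control replicate 2 was highest for H2-K1 (706.8 CPM, against 193.8 to 302.3) and lowest for Ppp1r1b (44.77 CPM), Cyp2j11 (144.5 CPM) and Col6a6 (4.124 CPM, against 76.54 to 81.65). Of the 5 genes with the widest gap relative to range, the remaining references lay at 0.06753 to 0.2294 CPM for Gm28438, 0.1398 to 1.108 for Ahsg, 8.542 to 21.26 for Alb and 1.317 to 4.182 for Apoa2.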

How the results depend on the processing

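Of 164 named genes called against all 6 references, 152 kept their call and sign in every alternative run, 161 did in every alternative that kept both G1 libraries, and 0 reversed. With library totals alone, 6645 genes rose and 2248 fell against all 6 references, 5973 and 1977 against wild type (single mutant), and 5782 and 1911 against Control; the omitted scaling moves every fold change up. DESeq2 called 24 genes between wild type (single mutant) and Control, 3 higher and 21 lower; the cause was not tested. Leaving out each library in turn gave 4761 to 8048 genes against all 6 references (2792 to 4287 risen, 1969 to 3761 fallen), 3941 to 7085 against wild type (single mutant) (2354 to 3822, 1587 to 3263) and 3549 to 7244 against Control (2121 to 3828, 1428 to 3416). Between the reference labels it gave 0 to 2 (0 to 2, 0 to 1). The lowest G1 counts were those without G1 replicate 2, a fit with 1 G1 library that is assumed to vary like the references. Of the genes whose sign reversed, none was called against all 6. Synpo was at -0.31 against the references titled NA_ and -0.10 against wild type (single mutant), Ttr at -0.88 against the other titles and -0.88 against wild type (single mutant), and Kirrel2 at -0.67 against NA_ titles and -0.85 against Control. With a library left out, Synpo ran from -0.071 to 0.25, Ttr from -0.16 to 0.996, Kirrel2 from -0.16 to 0.86, Eif2s3y from -6.74 to 0.29 and Kdm5d from -6.64 to 0.075; the cause was not tested. No paired analysis was possible because the genotype labels carry no replicate numbers. With 2 G1 libraries, differences in weakly expressed genes may not be detectable at this depth.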

Other observations

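A set of genes close to silent in the reference kidneys had counts in G1. A total of 217 genes had 0 counts in all 6 references and counts in both G1 libraries, of which 104 had 1 count in each and 4 had enough to be tested. The G1 libraries were the deepest. In the opposite direction, 76 genes had 0 counts in both G1 libraries and counts in all 6 references, and 64 tested genes had 0 counts over the G1 libraries. Counts in all 6 references are a stricter condition than counts in both G1 libraries, so 217 and 76 are not like for like. Il24, which encodes a cytokine of the interleukin-10 family, had 32 counts over the G1 libraries and none over the references, at least 23.5-fold higher with 3 counts over the references as the floor.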
